A study of Mus musculus with 1104 samples.

Results

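The genes described here are 9 interferon response genes, Cxcl10, Irf7, Ifit1, Ifit3, Rsad2, Oasl2, Gbp2, Isg15 and Usp18, chosen by name from a count table of 20646 genes and followed in 13 organs over time. RNA-seq libraries were made from male wild-type C57BL/6 mice (C57BL/6J in the series design) that ate a high-fat diet with 60 kcal% fat (D12492) from 8 weeks of age. Each organ had 14 time points from 0 days to 12 weeks with 6 mice at each, and epididymal fat also had 16 and 20 weeks, which gave 184 groups and 1104 libraries. All groups are compared with the mice of 0 days, the start of the diet. No mice kept off the diet enter these comparisons, and effects of the diet cannot be told apart from those of age or of the dissection date. The labels do not say whether libraries of different organs with the same replicate number came from the same mouse.

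Interferons are secreted proteins that cells release when they sense viral or misplaced nucleic acid. Type I interferons act on almost all cells and type III interferons, the lambda interferons, mainly on epithelia such as the lining of the gut; both signal through the kinases JAK1 and TYK2 to a complex with STAT2 and IRF9, which binds the interferon-stimulated response element. Interferon gamma, from T and NK cells, signals through JAK1 and JAK2 to the gamma-activated site of its target genes. In obese fat and liver the pathway is mostly studied in macrophages and other immune cells.

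Of the 9 genes, Cxcl10 encodes a chemokine that attracts T and NK cells and Irf7 the transcription factor that amplifies interferon production. Ifit1 and Ifit3 encode proteins that bind viral RNA, Rsad2 encodes viperin, an enzyme that makes a chain-terminating nucleotide, and Oasl2 is an oligoadenylate synthetase-like protein. Gbp2 is a guanylate-binding GTPase that attacks the membranes around intracellular pathogens. Isg15 is a ubiquitin-like protein that is attached to other proteins, and Usp18 removes it and also damps the type I receptor.

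On GRCm38, Gbp2 lies on chromosome 3 from 142620602 to 142638008 (plus strand), Isg15 on chromosome 4 from 156199424 to 156200818 (minus strand) and Usp18 on chromosome 6 from 121245906 to 121270917 (plus strand). Cxcl10 lies on chromosome 5 from 92346638 to 92348889 (minus strand) and Oasl2 on the same chromosome from 114896936 to 114912234 (plus strand). Irf7 lies on chromosome 7 from 141262706 to 141266481 and Rsad2 on chromosome 12 from 26442746 to 26456452, both on the minus strand. Ifit3 (34583531 to 34588731) and Ifit1 (34640871 to 34650009) are neighbours on the plus strand of chromosome 19. Ifit3 has a close copy, Ifit3b, and Ifit1, Gbp2 and Oasl2 have similar relatives, so that reads may be split between copies and single values of these genes are uncertain.

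The promoter sequences are shown because the response element is what most of these genes share. RefSeq (GRCm38.p6) gave a promoter, 250 bases before to 50 after the start, for 8 of the 9 genes, and the core of the element, GAAA followed after 2 bases of any kind by GAAA, was searched on both strands. It was found in 6 of the 8, against 3.44% of 32851 promoters. Capitals mark the matches, which overlap in Isg15; each sequence runs 5′ to 3′ on the strand of its gene, so that a match on the other strand reads TTTC.
Cxcl10 (chr5:92349073-92349122, minus): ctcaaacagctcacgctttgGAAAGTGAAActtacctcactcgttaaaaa
Ifit1 (chr19:34640765-34640833, plus): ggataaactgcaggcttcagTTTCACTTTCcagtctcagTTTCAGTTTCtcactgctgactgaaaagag
Ifit3 (chr19:34583353-34583436, plus): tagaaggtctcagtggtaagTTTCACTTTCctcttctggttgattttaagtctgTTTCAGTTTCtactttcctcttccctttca
Rsad2 (chr12:26456543-26456592, minus): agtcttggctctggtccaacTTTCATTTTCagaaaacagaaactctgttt
Isg15 (chr4:156200855-156200916, minus): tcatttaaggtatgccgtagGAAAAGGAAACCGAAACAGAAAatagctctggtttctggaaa

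Ifit1 and Ifit3 carried 2 cores each, 104 and 85 bases and 156 and 122 bases upstream of the start, and Isg15 carried 3 within 78 bases. Rsad2 had 1 at 120 bases, Cxcl10 1 at 213 bases and Gbp2 1 at 59 bases. Irf7 and Oasl2 had no match to these letters in the window. The gamma-activated site, TTC and GAA with 3 bases between, was in 0 of the 8 windows and in 8.30% of all promoters. The kappa B core, GGGA and TTCC with 2 bases between, a site of NF-kappa B, was in Cxcl10 and Gbp2 and in 1.47% of all promoters.

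Library totals ran from 7670532 to 27036098 counts with a median of 13464321. Marker genes of the labelled organ were highest in that organ for 12 of 13 organs; the hippocampus list was higher in pituitary. Some libraries stood apart. In olfactory bulb, replicate 6 at 4 weeks had 2.49 CPM of summed olfactory bulb markers against at least 279 in the other libraries. In epididymal fat, replicate 2 at 3 days carried 15774 CPM of fast muscle markers (median 2.7) and replicate 6 at 3 days 7103 CPM of pancreas markers. Replicate 1 at 0 days of that fat, a reference library, carried 1557 CPM of liver markers (median 8.21), and without it the 7 genes at 3 days and the 3 at 12 weeks were still called. In brown fat 6 libraries from 2 to 10 weeks carried 1593 to 3459 CPM of gastrocnemius markers (median 143), and in inguinal fat 2 carried 1170 and 3154 CPM of brown adipocyte markers (median 27.8). In soleus, 4 libraries, replicate 1 at 0 days among them, carried 38183 to 47083 CPM of gastrocnemius markers against a median of 3725. Inguinal fat varied in lymph node and B cell markers, which are given beside its results. CPM values are counts scaled to a common library total, with TMM factors taken within each organ. Levels between organs therefore also depend on what else a library holds. Summed pancreas markers had a median of 204111 CPM in pancreas, and pituitary markers had 178047 in pituitary. A gene is said to have risen or fallen where its adjusted p was under 0.05 by edgeR's quasi-likelihood test with Benjamini-Hochberg adjustment over all genes of that comparison. Percentages called background give the share of all tested genes that were called in the same comparison and direction.

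Before the diet the 9 genes were highest in small intestine and inguinal fat and lowest in pancreas. Small intestine had the highest median CPM for Irf7 (83.1), Ifit1 (38.1), Oasl2 (74.1) and Isg15 (16.1), and inguinal fat for Cxcl10 (7.49), Ifit3 (26.8), Gbp2 (66.5) and Usp18 (18.2). Brown fat came first for Rsad2 (13.6). Pancreas was lowest for 7 of the 9 genes, hypothalamus for Cxcl10 and hippocampus for Rsad2. Of 108 neighbouring pairs of organs in these orders, 15 differed by an exact two-sided permutation test of 6 against 6 libraries after Benjamini-Hochberg adjustment; the smallest p such a test can give is 0.00216, and the smallest adjusted p was 0.0292. With plain library totals 12 pairs differed, and inguinal fat came first for Irf7 (85.9 CPM). Among neighbours in both orders, the steps of Oasl2 from pituitary to inguinal fat (exact permutation test, adjusted p = 0.111), of Isg15 from small intestine to inguinal fat (0.0909) and of Usp18 from olfactory bulb to soleus (0.173) did not pass then; those of Cxcl10 below epididymal fat, of Irf7 below inguinal fat and of Ifit1 above pancreas had other neighbours.

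The order of Irf7 ran from small intestine (83.1 CPM) and inguinal fat (75.6), which were not told apart (exact permutation test, adjusted p = 0.832), to epididymal fat (41.5), liver (36), brown fat (12.3), pituitary (8.58), soleus (7.34), gastrocnemius (3.81), olfactory bulb (3.77), hippocampus (2.65), hypothalamus (2.26), neocortex (1.99) and pancreas (1.34). Steps that passed were those from inguinal to epididymal fat, from liver to brown fat and from soleus to gastrocnemius. Ifit1 stood apart in small intestine, where the 6 libraries lay between 29.1 and 48.9 CPM, above inguinal fat at 11.8 to 18.3 (exact permutation test, adjusted p = 0.0292). It then ran from liver (10.4) and olfactory bulb (8.53) to epididymal fat (7.28), pituitary (5.27), brown fat (3.52), hypothalamus (2.76), hippocampus (2.68), neocortex (2.59), gastrocnemius (2.24), soleus (1.92) and pancreas (0.558), and of these steps only the last one passed. Oasl2 ranked high in pituitary: its median there, 47 CPM, was below small intestine and above inguinal fat (26.4), and both steps passed. Below them came epididymal fat (15.7), olfactory bulb (10.6), liver (5.44) and brown fat (5.41), with the other organs between 2.11 and 4.03.

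Ifit3 was highest in inguinal fat (21 to 36.7 CPM) and next in olfactory bulb (8.91 to 22.3), a step that passed, followed by epididymal fat (13.7), liver (11.9) and small intestine (10.9). Its other medians lay between 2.89 and 5.93 CPM except in pancreas, at 0.674, and the steps from small intestine to pituitary and from gastrocnemius to pancreas also passed. Gbp2 was highest in fat, with medians of 66.5 CPM in inguinal, 42.9 in epididymal and 23.9 in brown fat, followed by small intestine (16) and pituitary (9.59), and between 1.6 and 6.5 elsewhere; the steps below epididymal fat and below small intestine passed. Usp18 was high in inguinal fat and liver (13.8), whose ranges of 10.8 to 22.2 and 11.6 to 21.4 overlapped. Isg15 in small intestine lay at 13.4 to 17.4 CPM, and inguinal fat (8.89), epididymal fat (7.26) and liver (6.58) followed. Rsad2 had the flattest order, with medians from 0.965 to 13.6 CPM and no neighbouring pair told apart. Cxcl10 was scarce: it was under the filter on low counts in pancreas, hypothalamus, neocortex and hippocampus, and its step from epididymal fat (3.8) to small intestine (2.05) was the one that passed.

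Over all 171 comparisons of a later time point with 0 days, the 9 genes were higher in 152 and lower in 42 of 1487 tests, 13% called, against 18.3% of all gene tests. Called changes were most numerous in epididymal fat (50 higher, 13 lower), pituitary (49 and 1), small intestine (27 and 1) and inguinal fat (10 and 11). In that order 46.7%, 42.7%, 23.9% and 17.9% of tests of the 9 genes were called. The shares of all gene tests called in these organs were 45.2%, 37.6%, 35.6% and 22%, so the counts largely went with calls over all genes. Gbp2 was higher in 31 of its 171 tests and lower in 0, Rsad2 higher in 24 and lower in 1, Ifit3 higher in 23 and lower in 0. Irf7 went the other way, higher in 3 and lower in 26. Against 18.3% of all gene tests called in either direction, these counts by themselves do not set a gene apart. In hypothalamus and neocortex 0 tests passed, against backgrounds over all time points of 4.72% and 13.2%.

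In small intestine 8 of the 9 genes rose together at 4 weeks, at levels many times those at 0 days, and were back near their first level by 8 weeks. The background at 4 weeks was 21.0% higher and 19.4% lower, with 40.4% called in either direction, so that many genes of every kind had moved by then; the median log2 fold change over all genes was 0.01 and over the 9 genes 3.29. In bulk tissue, more RNA per cell and more cells of a type cannot be told apart.

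Ifit3 had the largest change. It lay at 7.81, 10.9 and 12.3 CPM (lowest, median and highest of 6) at 0 days and at 10.7, 220 and 287 at 4 weeks. In 5 of the 6 libraries it was far above 0 days and in replicate 3 it was within the range of 0 days. The log2 fold change was 4.25 ± 0.33 (SE, n = 6 per group, edgeR adjusted p = 1.7e-18). Ifit1 went from 29.1, 38.1 and 48.9 to 47.3, 436 and 495 CPM, again with 1 low library (3.29 ± 0.31, edgeR adjusted p = 9.3e-15). Rsad2 went from 6.31, 8.4 and 8.95 to 12.6, 126 and 141 CPM, and here even the low library was above all at 0 days (3.75 ± 0.31, edgeR adjusted p = 5.5e-17). Oasl2, from 57.6, 74.1 and 89.9 to 83.8, 641 and 717 CPM, rose by 2.93 ± 0.25 (edgeR adjusted p = 2.4e-16).

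The ubiquitin-like modifier Isg15 and its protease rose alike. Isg15 lay at 13.4, 16.1 and 17.4 CPM at 0 days and at 20.3, 247 and 297 at 4 weeks (3.82 ± 0.30, edgeR adjusted p = 4.6e-18). Usp18 went from 5.49, 7.82 and 13.7 to 11.4, 121 and 139 CPM (3.62 ± 0.31, edgeR adjusted p = 1.2e-16). All 6 libraries at 4 weeks were above 0 days for Isg15 and 5 of 6 for Usp18. The amplifier Irf7, from 68.7, 83.1 and 90.3 to 86.1, 459 and 497 CPM, rose by 2.29 ± 0.19 (edgeR adjusted p = 8.6e-17). The chemokine Cxcl10 rose less, from 0.789, 2.05 and 2.5 to 2.95, 6.79 and 8.75 CPM with no overlap (1.76 ± 0.28, edgeR adjusted p = 3.6e-07). Gbp2 was the exception: it lay at 15.1, 16 and 19.9 CPM at 0 days and at 15.1, 17.4 and 18.9 at 4 weeks, the same range, with a log2 fold change of 0.06 ± 0.11 (edgeR adjusted p = 0.73).

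**Figure D1:**
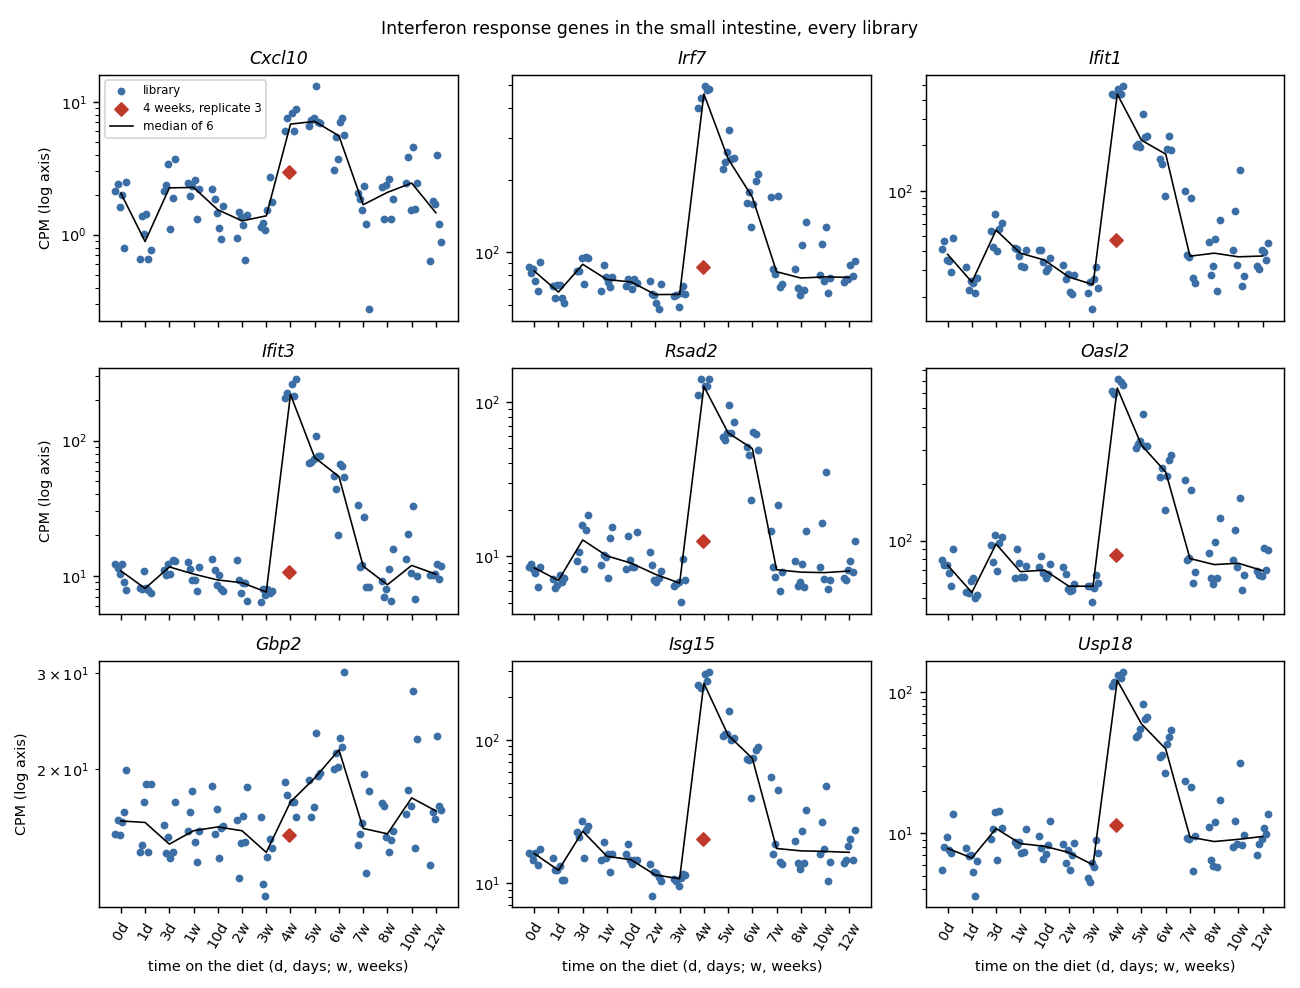
CPM (log axis) of the 9 genes in each of the 84 small intestine libraries against time on the diet; points are libraries, the line joins medians of 6, and the diamond is replicate 3 at 4 weeks. In 8 panels 5 libraries at 4 weeks stand far above 0 days with replicate 3 near it, all 6 libraries are high at 5 and 6 weeks, and Gbp2 shows its highest median, 21.7, at 6 weeks.

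At 3 weeks none of the 9 genes was called (all had negative log2 fold changes, from -0.24 to -0.73, against a background of 35.0% in either direction). At 5 weeks the same 8 genes were higher (background 22.0%), and at 6 weeks all 9 were (background 19.4%). Ifit3 had fallen to a median of 74.9 CPM at 5 weeks and 54.3 at 6 weeks, with log2 fold changes against 0 days of 2.90 and 2.26. Isg15 passed through 108 and 74.2 CPM (2.87 and 2.21), Rsad2 through 63 and 49.8 (3.07 and 2.59), and Irf7 through 246 and 169 (1.66 and 1.09). Usp18, at 59.5 and 39.6 CPM, Ifit1, at 216 and 175, and Oasl2, at 319 and 231, fell along with them. Cxcl10 did not share the early peak: its medians were 6.79, 7.11 and 5.54 CPM at 4, 5 and 6 weeks. Gbp2 was called at 6 weeks, at 20, 21.7 and 30.2 CPM, just above the range at 0 days (0.47 ± 0.11, edgeR adjusted p = 4.2e-04). At 5 and 6 weeks every library was above all 6 at 0 days for each of the genes called.

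At 7 weeks Isg15 (0.79, edgeR adjusted p = 0.03) and Oasl2 (0.63, edgeR adjusted p = 0.031) were still higher (background 21.4%), and at 8, 10 and 12 weeks none was (backgrounds 20.5%, 18.0% and 19.8% higher). Set against 4 weeks directly, 8 genes were lower at 8 weeks (background 6.67%), Ifit3 by -4.36, Rsad2 by -3.62, Ifit1 by -3.26 and Usp18 by -3.42, while Gbp2 differed by -0.14 (edgeR adjusted p = 0.52). Single libraries after the peak were still high. The mean log2 CPM of the 9 genes was 3.71 to 4.26 at 0 days and 6.97 to 7.23 in 5 libraries at 4 weeks. Replicates 1 and 4 at 7 weeks had 5.12 and 5.13 against at most 4.09 in the other libraries of that time, and replicate 4 at 10 weeks had 5.48. At 0 days and 3 days, the highest library reached 4.26 and 4.61.

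Replicate 3 at 4 weeks had a mean of 4.33, and the spread among libraries of that group, an SD of 1.14, was the largest of the 184 groups. Over 5663 genes on no interferon list that were called without it, it shared the direction of the other 5 in 91.3%, with a median shift of 0.74 of theirs. For the 8 interferon response genes called, its median shift was 0.09 of theirs, and for 68 other pathway genes 0.13. Without it the log2 fold changes at 4 weeks were larger, 4.50 for Ifit3, 4.06 for Isg15 and 3.98 for Rsad2, and the same number of genes, 8, was called.

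The rest of the pathway was taken from lists by role. Of 32 other type I targets tested in small intestine, 31 were higher at 4 weeks, 30 at 5 and 26 at 6, with 0 lower each time (medians 1.87, 1.16 and 0.83). Bst2, the tetherin that holds virus on the cell, went from a median of 9.38 to 82.3 CPM at 4 weeks (2.97) and Oasl1 from 59.2 to 273 (2.02). Among 6 signal transducers, 3 rose at 4 weeks, among them Stat2 from 56.8 to 191 CPM (1.58) and Irf9 from 48.2 to 85.6 (0.75), and 1, Jak2, fell (-0.35). Of 15 nucleic acid sensors and adaptors 10 were higher and 1 lower, led by Dhx58, a cytosolic RNA sensor (7.1 to 91 CPM, 3.44), and Zbp1, a sensor of Z-form nucleic acid (14.2 to 126 CPM, 2.84). Of 7 receptor genes 0 rose and 2 fell, the type I receptor chain Ifnar1 from 70.7 to 55.9 CPM (-0.32) and the gamma receptor chain Ifngr1 from 193 to 169 (-0.20). Of 4 brakes 3 rose, the RNA editor Adar (1.11), Samhd1 (0.73) and Socs1 (1.46), and Socs3 fell (-0.77).

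Of 23 interferon gamma targets tested, 14 were higher and 1 lower at 4 weeks, 20 and 1 at 5 weeks, and 19 and 2 at 6 weeks (medians 0.53, 0.83 and 0.79). The immunity-related GTPases Igtp (15.4 to 172 CPM, 3.26) and Irgm1 (26.2 to 143, 2.21) rose at 4 weeks. Other members, like Gbp2, were not called at 4 weeks and rose later. They were called from 5 weeks, before Gbp2, which was called at 6 weeks alone. Cxcl9, a chemokine that is a relative of Cxcl10, had log2 fold changes of 0.03 at 4, 1.41 at 5 and 1.14 at 6 weeks, and Gbp4 -0.00, 0.74 and 0.67; those at 5 and 6 weeks were called, and both genes were chosen after their values were seen. T cell markers, summed, were 32.2 to 36 CPM at 0 days, 25 to 34.6 at 4 weeks (1 of 5 markers higher and 2 lower), 33.4 to 45.4 at 5 weeks and 40.7 to 61.4 at 6 weeks, when 4 of 5 were higher, and NK cell markers had medians of 42.1, 17.7, 31.8 and 53.7 CPM, with 0 of 3 tested higher; their part in the gamma targets was not tested. Macrophage markers had a median of 158 CPM at 0 days, 196 at 4 weeks (6 of 7 higher) and 199 at 12 weeks. The part of macrophages in the rise was not tested.

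Counts of the lambda interferons appeared at the same time points. Ifnl2 had 0 counts in the small intestine libraries of each time point before 4 weeks (a count of 0 allows up to 3, for counting error only). It had 28 counts in 5 libraries at 4 weeks, 33 in 6 libraries at 5 weeks and 2 at 6 weeks, then 1 at 10 weeks and 2 at 12 weeks. Ifnl3 had 42 counts in 6 libraries at 4 weeks, 17 in 5 at 5 weeks and 4 at 6 weeks. Both genes were below the filter, so that no test was made, and being near-identical they may share reads. Replicate 3 at 4 weeks had 1 count of each. The other libraries of that group had 2 to 15 of Ifnl3, at most 1.28 CPM, and replicate 5, whose mean over the 9 genes was 7.06, had 0 of Ifnl2 and 2 of Ifnl3. The type I interferon genes Ifnb1, Ifna2, Ifna4 and Ifna5 had 0 counts in all 84 small intestine libraries, and Ifne had 5. Ifnk, also type I, had 58 counts in 30 of the 84 libraries. It had 4 at 0 days, 6 at 4 weeks, 5 at 5 weeks and 15 at 6 weeks. The interferon gamma gene Ifng had 0 counts at 0 days, 1 at 4 weeks, 0 at 5 weeks and 10 in 4 libraries at 6 weeks, and at most 6 at any other time point.

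The rise of 7 of the genes at 4 weeks was larger in small intestine than in at least 11 of the 12 other organs. A contrast of the change in small intestine and the change in 1 other organ, made for each of the 12 after the peak was seen, passed for Rsad2 and Oasl2 in 12 of 12. It passed for Irf7, Ifit1, Ifit3, Isg15 and Usp18 in 11, pancreas being the exception, and for Cxcl10 in 7. For Gbp2 it passed in 2, both with a smaller change in small intestine (by -1.06 against pancreas and -0.43 against pituitary). Backgrounds in either direction were 1.68% against soleus, 8.92% against olfactory bulb, 12.7% against brown fat, 15.9% against liver, 16.4% against pancreas and 18.0% against hippocampus. They were 18.9% against neocortex, 20.1% against hypothalamus, 23.1% against gastrocnemius, 27.1% against inguinal fat, 36.2% against epididymal fat and 38.5% against pituitary. The differences for Ifit3 ran from 2.60 to 4.74 and for Irf7 from 1.23 to 2.86 on the log2 scale.

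Epididymal fat, the visceral depot that fills with macrophages as mice become obese, showed an early rise of most of the genes and a lasting split between Rsad2 and Irf7. At 3 days 7 of 9 were higher and 0 lower (background 21.3% higher). At 12 weeks Rsad2 and Oasl2 were higher and Irf7 was lower (backgrounds 31.0% higher and 29.3% lower), so that the count of genes at 12 weeks, 3 of 9, was below the background of 60.4% in either direction. Rsad2 was higher at all 15 time points, by 0.60 to 1.56, and Gbp2 at 13 of 15, all but 1 day and 12 weeks. The background of higher genes was 10.8% at 1 day, 21.3% at 3 days, 20.1% at 1 week, 20.8% at 10 days and 22.2% at 2 weeks. It was 24.8% at 3 weeks, 18.8% at 4, 24.6% at 5, 23.8% at 6, 27.8% at 7, 29.0% at 8, 28.9% at 10, 30.9% at 16 and 31.0% at 20 weeks.

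Rsad2 lay at 3.74, 5.86 and 12.6 CPM at 0 days and at 13.3, 18.8 and 25.6 at 3 days. The groups did not overlap, and the log2 fold change was 1.42 ± 0.20 (edgeR adjusted p = 2.4e-08). At 12 weeks it lay at 17.2, 20.8 and 22.8 CPM, again above all at 0 days (1.52 ± 0.20, edgeR adjusted p = 6.3e-10), and at 20 weeks at 18.2, 19.7 and 29.7 (1.56). Ifit3 went from 9.03, 13.7 and 20.6 to 19.8, 31.5 and 46.9 CPM at 3 days (1.15 ± 0.18, edgeR adjusted p = 2.8e-07). Ifit1 went from 4.66, 7.28 and 13.4 to 10.2, 13.5 and 33 CPM (0.95 ± 0.21, edgeR adjusted p = 1.3e-04), and its groups overlapped. Neither was called at 12 weeks (0.15 and 0.03).

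Oasl2 rose at 3 days from 11, 15.7 and 26.6 to 22.7, 24.8 and 51.7 CPM (0.85 ± 0.18, edgeR adjusted p = 1.0e-04) and stood at 32.9, 38.8 and 47.2 CPM at 20 weeks, above all at 0 days (1.19). Gbp2 rose at 3 days from 37.9, 42.9 and 68.8 to 68.5, 82 and 88.8 CPM with ranges that just touch (0.72 ± 0.14, edgeR adjusted p = 2.6e-05). Usp18 (0.71 ± 0.20, edgeR adjusted p = 0.0027) and Isg15 (0.63 ± 0.23, edgeR adjusted p = 0.022) rose at 3 days only. The library with muscle markers, replicate 2 at 3 days, was the highest for Ifit1 (33 CPM) and Usp18 (17.4 CPM). Without it Usp18 (0.37, edgeR adjusted p = 0.11) and Isg15 (0.51, edgeR adjusted p = 0.082) were no longer called, and Ifit1 was, at 0.59. Of 32 other type I targets 20 were higher and 0 lower at 3 days (median 0.59), while 1 of 7 macrophage markers was higher.

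Irf7 moved the other way. It lay at 36.2, 41.5 and 54 CPM at 0 days and at 15.7, 20.5 and 22.8 at 12 weeks, with no overlap (-1.12 ± 0.14, edgeR adjusted p = 2.0e-10). It was lower at 1 day (-0.41) and at each time point from 3 weeks to 20 weeks, by -0.57 to -1.14. The background of lower genes was 8.26% at 1 day, 14.6% at 3 weeks, 15.1% at 4, 22.0% at 5, 20.2% at 6, 25.7% at 7, 27.3% at 8, 26.2% at 10, 29.1% at 16 and 29.8% at 20 weeks. Cxcl10 was lower at 5 weeks alone (-0.66).

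**Figure D2:**
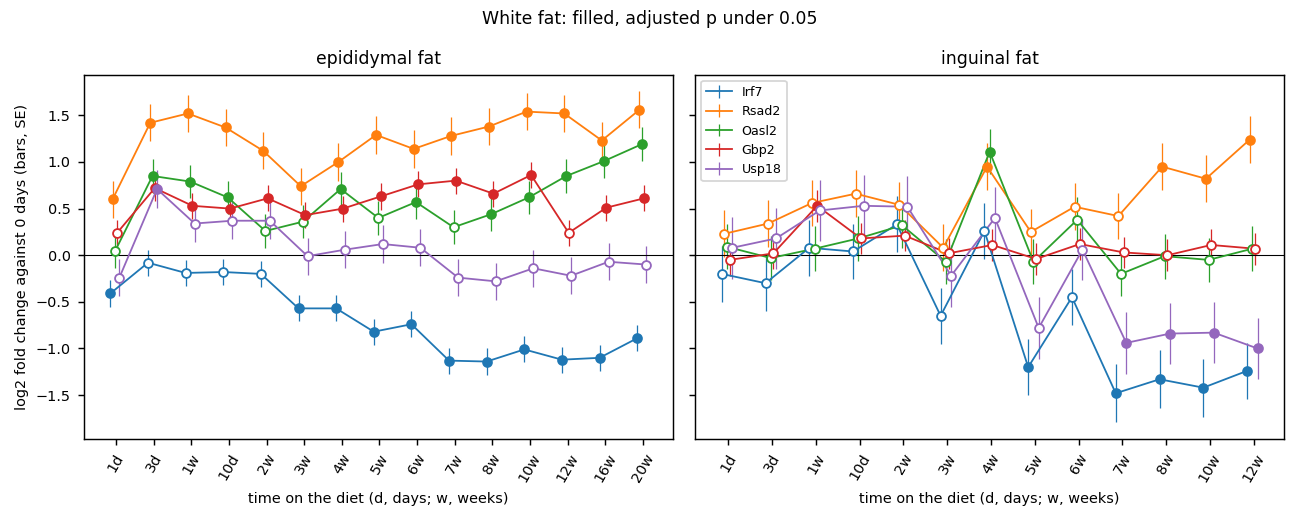
Log2 fold change against 0 days (vertical axis, bars SE, 6 libraries per time point) of 5 of the genes in epididymal fat, left, and inguinal fat, right, against time on the diet; filled points had an edgeR adjusted p under 0.05. Rsad2 is above 0 throughout in epididymal fat, Irf7 falls from 3 weeks on in epididymal fat, to between -0.57 and -1.14, and to between -1.20 and -1.48 at the called times in inguinal fat.

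At 12 weeks, with Irf7 lower, macrophage markers were higher and those of lymph nodes were lower. Summed macrophage markers rose from 854 to 1243 CPM at 0 days to 3337 to 7143 at 12 weeks (7 of 7 higher). Both tested markers of lymph node stroma and vessels were lower, with sums of 75.1 to 166 CPM at 0 days and 18.2 to 26.7 at 12 weeks, as was 1 of 3 plasmacytoid dendritic cell markers (sum 4.67 to 2.05, medians). Endothelial markers fell too, 4 of 4, from a median of 662 to 382 CPM. The lymph node sum had a median of 93.5 CPM at 0 days and 33.2 already at 3 days, when Irf7 was not called. Within time points Irf7 had a Pearson r of 0.19 with lymph node, -0.01 with macrophage and -0.41 with endothelial markers (96 libraries, a description). The part of these cells in the result was not tested. At 20 weeks B cell markers (median 53.5 CPM, 5 of 5 higher) and T cell markers (20.4 CPM, 5 of 5 higher) had risen and Irf7 remained lower (-0.89).

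Around these genes the lists of the pathway differed at 12 weeks. The share of higher genes was above the background of that time, given earlier, for receptors, sensors and other type I targets. It was near that background for transducers and below it for interferon gamma targets. Receptors were 4 higher and 2 lower of 7, with Ifnar1 from 54.6 to 97.8 CPM (0.82) and Il10rb, the shared chain of the lambda receptor, from 33 to 79.5 (1.28). Transducers were 2 higher of 6, Jak1 (135 to 276 CPM, 1.01) and Tyk2 (0.68). Sensors and adaptors were 10 higher and 1 lower of 15, with the RNA receptor Tlr7 (8.81 to 44.2 CPM, 2.34) and Irf5 (40.6 to 115 CPM, 1.49), both of which macrophages express. Other type I targets were 20 higher and 0 lower of 32 (median 0.67), with Samd9l (0.95) and Tor3a (0.71). Interferon gamma targets were 5 higher and 8 lower of 23 (median -0.33), with Irf8, a myeloid transcription factor (17.5 to 76.1 CPM, 2.08), and Ciita, the switch of MHC class II (1.42). Of the brakes Samhd1 rose (94 to 201 CPM, 1.06) and Socs1 had -0.49 (edgeR adjusted p = 0.14). Of the ligands that could be tested, Il12b was higher (2.74) and Il18 had -0.21.

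In inguinal fat, the subcutaneous depot that encloses a lymph node, Rsad2 rose and Irf7 and Usp18 fell by 12 weeks (backgrounds 21.5% higher and 23.1% lower). Rsad2 lay at 8.56, 11.6 and 15.4 CPM at 0 days and at 21.2, 29 and 32.6 at 12 weeks (1.24 ± 0.25, edgeR adjusted p = 5.0e-05). Irf7 went from 68.6, 75.6 and 97.6 to 27.6, 34.9 and 40.1 CPM (-1.24 ± 0.30, edgeR adjusted p = 5.9e-04) and Usp18 from 10.8, 18.2 and 22.2 to 7.58, 8.95 and 10.3, 2-fold lower (edgeR adjusted p = 0.011). None of the 3 genes had overlapping groups. Irf7 was lower at 5, 7, 8, 10 and 12 weeks, by -1.20 to -1.48 (backgrounds 12.9%, 20.1%, 20.7%, 18.8% and 23.1% lower). At 4 weeks Oasl2 (1.11), Ifit1 (0.98) and Rsad2 (0.95) were higher (background 9.17%); Ifit1 ranged from 14.5 to 60.3 CPM there.

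Lymphoid tissue in the inguinal libraries moved with Irf7. Summed B cell markers were 359, 675 and 1168 CPM at 0 days and 2.83, 4.84 and 16.6 at 12 weeks (5 of 5 lower), and lymph node markers 342, 433 and 978 against 3.29, 4.87 and 7.92. At 4 weeks B cell markers spanned 2.85 to 844 CPM, so that some pads of that time held almost none. Within time points the deviations of Irf7 went with those of NK cell markers at a Pearson r of 0.74, of macrophage markers at 0.58 and of B cell markers at 0.30 (84 libraries, a description; the values share library and depth). Summed gastrocnemius markers spanned 3.73 to 14212 CPM at 0 days and 3381 to 16641 at 12 weeks, with 0 of 3 called. What lymph node or muscle in the pads contributed to these changes was not tested. Other interferon genes fell with it: 15 of 22 gamma targets (Tap1, the peptide transporter, from 168 to 38.6 CPM, -1.99) and 5 of 6 transducers (Irf9 from 72.4 to 31.4, -1.14) were lower at 12 weeks.

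Pituitary, the gland that releases growth hormone, prolactin and other hormones, had a small and lasting rise of the Ifit genes, Gbp2 and Isg15. Gbp2 was higher at 11 of 13 time points, all but 1 day and 10 days, and Ifit3 at 10 of 13. The largest count was at 10 weeks, 7 higher of 9 (background 22.6%), and at 12 weeks it was 4 (background 23.2%). Only 0.113% of genes were higher at 1 day, when none of the 9 was. The background was 19.4% at 3 days, 21.4% at 1 week, 14.2% at 10 days, 22.4% at 2 weeks and 20.0% at 3 weeks. From 4 to 8 weeks it was 19.4%, 18.5%, 21.0%, 21.6% and 21.0%.

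At 10 weeks Gbp2 lay at 13.1, 16.4 and 24.2 CPM against 7.34, 9.59 and 10.4 at 0 days, with no overlap (0.97 ± 0.14, edgeR adjusted p = 8.4e-09). Ifit3 went from 3.75, 5.93 and 8.06 to 6.98, 9.8 and 24.4 CPM (1.07 ± 0.18, edgeR adjusted p = 6.8e-07) and Ifit1 from 2.6, 5.27 and 6 to 5.67, 7.95 and 18.1 (0.94 ± 0.22, edgeR adjusted p = 3.0e-04), both with overlap. Isg15, from 1.62, 1.85 and 2.39 to 2.18, 3.57 and 6.7 CPM, rose by 1.01 ± 0.25 (edgeR adjusted p = 4.7e-04). Usp18 (0.51 ± 0.11) and Oasl2 (0.21 ± 0.08) rose less, and Oasl2 lost its call without replicate 6. Cxcl10 had the largest fold, 2.95 ± 0.59 (edgeR adjusted p = 2.5e-05), but this came from 2 libraries: replicates 4 and 6 had 9.52 and 5.33 CPM, and the median, 0.514, was within the range at 0 days of 0.129 to 0.798.

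At 12 weeks Ifit1 lay at 6.59, 9.73 and 11.1 CPM and Gbp2 at 11.6, 14.2 and 18.6, both above all libraries at 0 days (0.87 ± 0.22 and 0.70 ± 0.14). Ifit3 (6.7, 11.5 and 12.1 CPM, 0.84 ± 0.18) was higher with overlap, and Isg15 (0.61 ± 0.25, edgeR adjusted p = 0.037) lost its call in 6 of the 12 fits that left out 1 library. Irf7 (0.06) and Rsad2 (0.02) were not called at 12 weeks, and Irf7 was lower at 2 weeks (-0.47; background 21.8% lower).

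**Figure D3:**
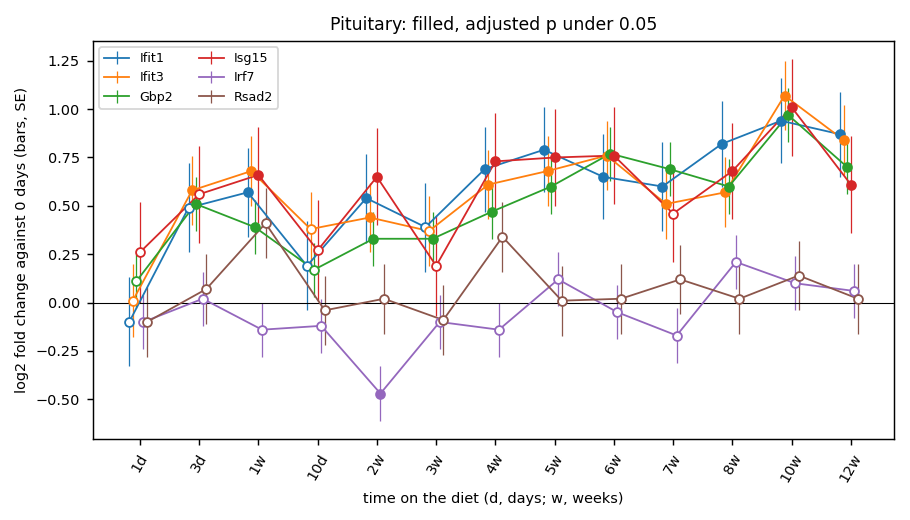
Log2 fold change against 0 days (vertical axis, bars SE, 6 libraries per time point) of 6 of the genes in pituitary against time on the diet; filled points had an edgeR adjusted p under 0.05. Ifit1, Ifit3, Gbp2 and Isg15 are above 0 from 3 days on, with their largest values at 10 weeks (0.94, 1.07, 0.97 and 1.01), while Rsad2 and, but for 2 weeks, Irf7 have open points.

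Of 32 other type I targets in pituitary, 16 were higher and 1 lower at 12 weeks (median 0.35), among them Parp14 (25.7 to 49.5 CPM, 0.94) and Slfn5 (0.71). Of 6 transducers 1 was higher and 3 were lower (22.4% of all genes were lower at 12 weeks): Tyk2 fell from 54.2 to 29.4 CPM (-0.89) and Stat2 from 46.4 to 33 (-0.50), and Jak1 rose from 174 to 237 (0.42). Macrophage markers were 4 of 7 higher at both times, with sums of 57.1 to 68.8 CPM at 0 days and 66.9 to 78.2 at 12 weeks, endothelial markers 2 of 4 higher (median 212 to 263), and T cell markers low throughout (2.07 and 1.94). Their part in the rise was not tested.

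In liver 3 of 9 genes were higher at 12 weeks (background 20.6%). Cxcl10 went from 1.17, 2.02 and 3.12 to 2.93, 3.72 and 4.98 CPM (0.83 ± 0.28, edgeR adjusted p = 0.013), Gbp2 from 3.02, 4.55 and 7.64 to 6.87, 7.78 and 12 (0.75 ± 0.24, edgeR adjusted p = 0.0088) and Ifit3 from 6.09, 11.9 and 16.8 to 10.6, 15.1 and 17 (0.36 ± 0.15, edgeR adjusted p = 0.044). All had overlapping groups, and Ifit3 lost its call in 7 of 12 fits that left out 1 library. Cxcl10 was also higher at 8 (0.80; background 14.9%) and 10 weeks (0.88; background 12.6%) and Gbp2 at 10 weeks (0.68). Usp18 was lower at 7 weeks (-0.74, with no overlap; background 11.4%) and 10 weeks (-0.45; background 12.5%). Other type I targets were 7 higher and 2 lower of 32 (median 0.14; Samd9l 0.98, Lgals3bp 0.81) and gamma targets 6 and 2 of 21 (Tap1 0.84, Iigp1 -0.65). Of 5 receptor genes 2 were lower, Ifnar1 (-0.36) and Ifnar2 (-0.31), and 0 higher (21.4% of all genes were lower). Transducers were 2 higher and 1 lower of 6 (Stat2 0.30, Jak1 -0.36), and sensors 1 and 2 of 15 (Irf5 -0.96, Irf3 -0.34).

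Elsewhere calls were few. In pancreas Gbp2 was higher at 3 weeks (1.14; background 0.452%), at 4 weeks (1.10; background 1.56%) and at 12 weeks, from 1.15, 1.6 and 2.34 to 1.5, 2.63 and 7.53 CPM (1.06 ± 0.31, edgeR adjusted p = 0.025; background 2.85%), a call lost in 4 of 12 fits without 1 library. Ifit3 there rose at 4 weeks from 0.461, 0.674 and 1.03 to 1.42, 2.23 and 3.32 CPM with no overlap (1.64 ± 0.39, edgeR adjusted p = 0.0089). Within time points Gbp2 in pancreas had a Pearson r of 0.65 with macrophage and 0.49 with B cell markers (84 libraries, a description). Summed B cell markers of pancreas spanned 0.922 to 31.9 CPM at 0 days and 0.119 to 50.4 at 12 weeks. The part of these cells in the pancreas calls was not tested. In soleus Irf7 was lower at 6, 8, 10 and 12 weeks (backgrounds 0.481%, 0.649%, 1.47% and 1.69% lower), at 12 weeks from 5.42, 7.34 and 19.1 to 3.25, 4.71 and 5.65 CPM (-0.93 ± 0.27, edgeR adjusted p = 0.031). The library at 0 days with gastrocnemius markers, replicate 1, held the 19.1 CPM, and without it the value was -0.60 (adjusted p = 0.28); the call was lost in 6 of 12 such fits. In brown fat Irf7 was lower at 1 day and at 3, 5 and 7 weeks, with overlap each time (-0.52 to -0.63, backgrounds 9.60%, 10.8%, 8.78% and 11.5% lower). Rsad2 fell at 1 day from 8.29, 13.6 and 17.5 to 4.42, 7.28 and 8.1 CPM with no overlap (-0.97 ± 0.27, edgeR adjusted p = 0.0057), and none of the 9 genes was called in brown fat at 12 weeks (27.6% of all genes in either direction).

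In olfactory bulb Cxcl10 was lower at 4, 7, 8 and 12 weeks (backgrounds 17.8%, 11.2%, 15.7% and 9.99% lower). It lay at 0.129, 0.687 and 3.93 CPM at 0 days and at 0, 0.265 and 0.489 at 12 weeks (-2.40 ± 0.64, edgeR adjusted p = 0.0036). The groups overlapped, and the 2 high libraries at 0 days, replicates 1 and 2 at 2.92 and 3.93 CPM, carried the difference. Without the library that lacked bulb markers the value at 4 weeks was -2.01 in place of -2.28 (edgeR adjusted p = 0.0063). Gastrocnemius had Rsad2 higher at 6 weeks (0.76; background 0.908%) and Isg15 at 3 weeks (1.19; background 24.6%). Hippocampus had Rsad2 higher at 10 weeks (0.84, background 7.06%). A joint edgeR test of all later time points against 0 days did not pass for some of the genes called at single times. These were Irf7 in brown fat (adjusted p = 0.093) and soleus (0.064), Isg15 in gastrocnemius (0.1) and Rsad2 in hippocampus (0.15). Cxcl10 in epididymal fat (0.26) and Oasl2 in pituitary (0.062) did not pass it either. The other genes named here in pancreas, brown fat, olfactory bulb and gastrocnemius passed.

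**Figure D4:**
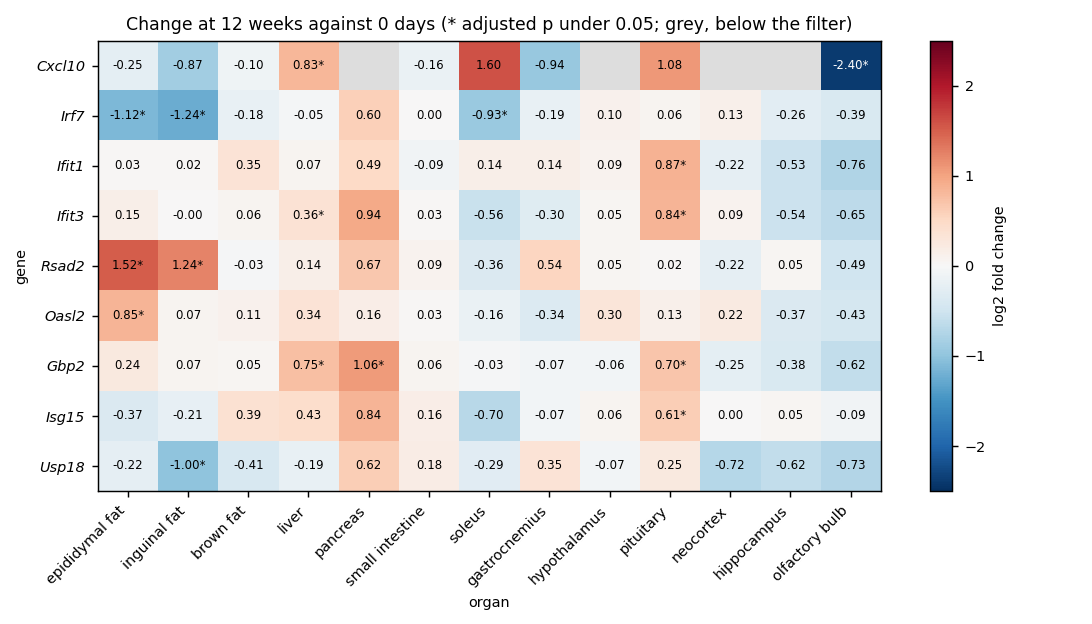
Log2 fold change at 12 weeks against 0 days (colour and number) of each gene, in rows, in each of the 13 organs, in columns; an asterisk marks an edgeR adjusted p under 0.05 and grey a gene below the filter on low counts. Irf7 is at -1.12 and -1.24 and Rsad2 at 1.52 and 1.24 in the white fat depots, and the small intestine column has no asterisk.

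Differences between organs at 12 weeks were tested against epididymal fat. Of the 9 genes 1, Oasl2, changed more in epididymal than in inguinal fat (0.78 ± 0.30, edgeR adjusted p = 0.028; background 40.3% in either direction), and no difference between the depots was shown for Rsad2 (0.28) and Irf7 (0.12). With the replicate number within each time point as a block, on the libraries of 0 days and 12 weeks alone, Usp18 (0.85, edgeR adjusted p = 0.029; 0.095 without the block) differed too. Against brown fat the change of Irf7 was lower by -0.97 (edgeR adjusted p = 5.3e-04) and that of Rsad2 higher by 1.52 (edgeR adjusted p = 7.6e-05; background 40.4%). Against liver the changes of Irf7 (-1.15), Cxcl10 (-1.16) and Isg15 (-0.88) were lower and that of Rsad2 (1.30) higher (background 47.1%).

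Among libraries of 1 group the genes went up and down together, most in small intestine. The mean Pearson r over pairs of the genes, of deviations from the time point mean, was 0.72 in small intestine (84 libraries; Irf7 with Oasl2 0.98), 0.60 in olfactory bulb, 0.58 in inguinal fat and 0.38 in epididymal fat (96 libraries), and it was lowest in gastrocnemius (0.12), neocortex (0.13) and soleus (0.15). These are descriptions, since values of 1 library share its depth and RNA quality. The small intestine values include replicate 3 at 4 weeks, which lay -2.31 from its group mean over the 9 genes. That group had the largest spread of all groups, and no r without this library is given. Ifit3 (median over organs 0.73) and Ifit1 (0.70) followed the mean of the other genes most closely, and Rsad2 (0.37) and Isg15 (0.38) least. Rsad2 with Isg15 was the lowest pair in 8 of 13 organs, down to -0.65 in soleus. The 10 genes most like the mean of the 9, of 10817 kept in all organs, were Gbp3 (median r 0.67), H2-K1 (0.66), Rtp4 (0.62), H2-D1, Irf9 and Ifi47 (each 0.61), and Lgals3bp, Tap1, Iigp1 and Irgm2 (each 0.60). H2-K1 and H2-D1, which encode MHC class I heavy chains, were the 2 on no pathway list.

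Part of this spread went with transcript length. For each library an index was taken, the mean log2 CPM of genes in the top 20% by annotated transcript length less that of the bottom 20%, and it varied within groups by an SD of 1.01 in soleus, 0.35 in epididymal fat, 0.05 in liver and 0.03 in small intestine. Rsad2, whose longest transcript has 4189 bases, went with the index at an r of 0.90 in soleus, 0.74 in gastrocnemius, 0.66 in brown fat and 0.61 in epididymal fat. Isg15, at 756 bases the shortest, went against it at -0.81, -0.70, -0.28 and -0.60. Irf7, whose longest annotated transcript has 3240 bases, also went against it in several organs. It had -0.64 in soleus, -0.51 in gastrocnemius, -0.48 in inguinal fat and -0.40 in epididymal fat. Its only positive values were 0.15 in brown fat and 0.14 in pancreas. The longest annotated transcript may not be the one expressed, which was not tested.

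**Figure D5:**
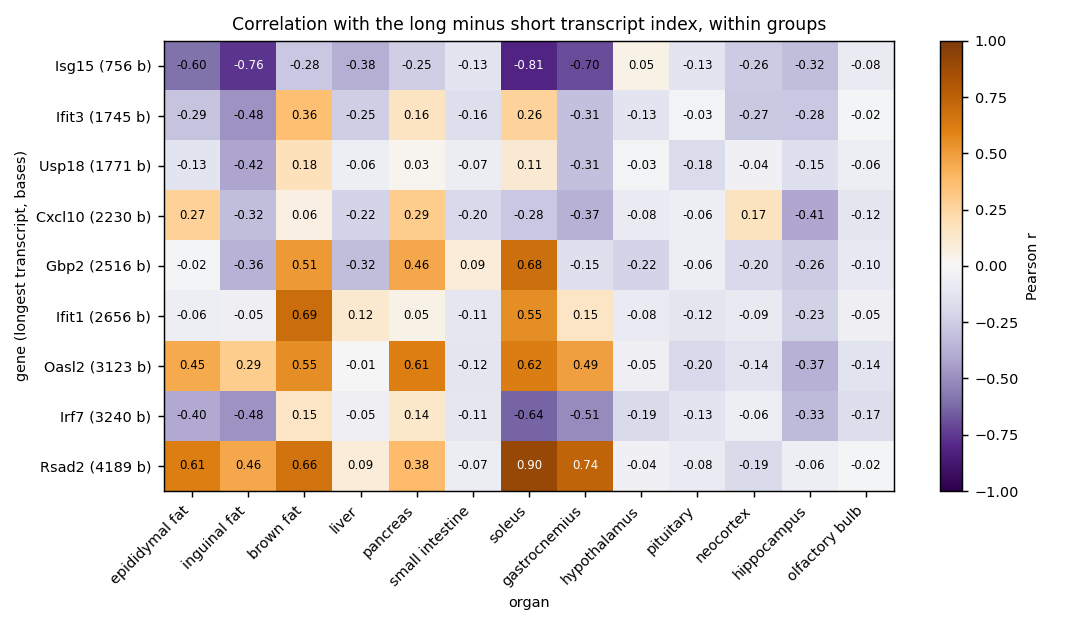
Pearson r (colour and number) between each gene and the long minus short transcript index, both as deviations from the time point mean, in each organ (84 libraries, 96 in epididymal fat); genes are ordered by the length of their longest transcript. In soleus the row of Isg15 is at -0.81 and that of Rsad2 at 0.90, while in small intestine the 9 values lie between -0.20 and 0.09.

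The index moved with time point in some organs, from a mean of 0.92 at 0 days to 1.36 at 12 weeks in epididymal fat and from 0.19 to 0.00 in liver. In pituitary it went from 1.61 to 1.87 (within-group SD 0.06), in hippocampus from 1.81 to 2.02 (0.05) and in olfactory bulb from 2.29 to 2.17 (0.03). With the index as a covariate, added after the data were seen, Rsad2 (1.30), Oasl2 (0.70) and Irf7 (-1.01) in epididymal fat at 12 weeks kept their calls, as did the 7 genes at 3 days. The 3 genes of inguinal fat at 12 weeks and the 8 of small intestine at 4 weeks (Ifit3 4.00) also kept theirs. In pituitary the 7 calls at 10 weeks and the 4 at 12 weeks were kept (at 12 weeks Ifit1 1.04, Ifit3 0.88, Gbp2 0.76, Isg15 0.85), and Usp18 (0.39) was called as well at 12 weeks. In olfactory bulb Cxcl10 at 12 weeks kept its call (-2.80). In liver none of the 3 calls at 12 weeks was kept: Cxcl10 had 0.43 (edgeR adjusted p = 0.38), Gbp2 0.28 (0.51) and Ifit3 0.13 (0.64). In liver, pituitary and olfactory bulb the index shifted from 0 days to 12 weeks far beyond its spread within groups. There the index and the time point cannot be told apart, whether calls were lost or kept.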

How the data were processed

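The deposited values were whole-number read counts per gene symbol, 1 column per library, made by the authors from poly(A) RNA in strand-specific libraries, per the labels' protocols. The submitters' processing notes name the read tools FastQC (0.11.7) and Trimmomatic (0.38), the aligner HISAT2 (2.1.0) with SAMtools (1.9), the counter featureCounts (1.6.3) and the build GRCm38 (mm10). Which annotation was counted, and whether by strand, was not given in the sources used here, and overlapping genes on opposite strands may share reads.

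For each organ, edgeR 4.0.16 (R 4.3.3; filterByExpr, TMM, glmQLFit and glmQLFTest, two-sided) was fitted to all libraries with a term for every time point. Adjusted p-values are Benjamini-Hochberg values over all genes kept, with a threshold of 0.05, and a standard error was obtained by dividing the absolute log2 fold change by the root of its F statistic. The labels name 6 mice per group but no cage or litter, so p-values measure the spread between these samples. Library totals, with a median of 13464321 counts, limit the precision of genes under about 1 CPM. Log2 CPM used a prior count of 2, and levels between organs were compared on log2 of CPM plus 0.5. Alternatives were RLE size factors, no filter, DESeq2 1.42.0, a fit of the 2 time points alone, the replicate number as a block and 1 library left out. The length index as a covariate, the removal of libraries that stood apart and the contrasts with small intestine at 4 weeks were added after the data were seen. In pairs of libraries of 1 group the lowest chi-square per degree of freedom was 2.11, so no library was counted as a repeat. Coordinates and transcript lengths are from GENCODE M21. Python 3.11.15, numpy 2.4.6, pandas 2.3.3, scipy 1.17.1 and matplotlib 3.10.9 were used, and the fits were tested on simulated data.

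The 9 genes and the role lists were chosen with earlier results of these data known. Of each role list, the 2 members with the smallest p in epididymal fat and liver at 12 weeks are named by rule, as are the 9 genes and the 10 most like them; other pathway genes were chosen after their values were seen. Ifna1, Mx1, Mx2, Cxcl11 and Trex1 were not analysed here, and 1 member of the signal transducer list is not reported here.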

Additional observations from a re-analysis of the deposited data

Results flagged for a closer look

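In 81 groups of 6 libraries whose values the text describes, the highest or lowest library was tested for standing apart from the other 5 by Dixon's test, and 19 did. Chance gives about 1 in 20 groups where groups are independent. These are not: genes of 1 organ and time point share libraries, so that 1 library can be flagged for many genes. The number flagged is therefore not a measure against chance. At 4 weeks in small intestine replicate 3 was the lowest library by this test for Irf7 (86.1 CPM), Ifit1 (47.3), Ifit3 (10.7), Rsad2 (12.6), Oasl2 (83.8), Isg15 (20.3) and Usp18 (11.4). At 5 weeks replicate 4 was the highest for Cxcl10 (13.2 CPM), Ifit1 (323), Ifit3 (108), Oasl2 (468) and Isg15 (158). Gbp2 had a high library in small intestine at 0 days (replicate 6, 19.9 CPM) and at 6 weeks (replicate 6, 30.2 CPM), and Isg15 a low one at 6 weeks (replicate 3, 39.1 CPM). In epididymal fat at 3 days replicate 2, which also carried muscle markers, was highest for Ifit1 (33 CPM) and Usp18 (17.4 CPM). In pituitary Ifit1 was low in replicate 4 at 0 days (2.6 CPM) and Rsad2 high in replicate 6 at 10 weeks (24.1 CPM).

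The change at 12 weeks differed between organs by its own test in edgeR for 7 values, given as the change in epididymal fat less that in the other organ on the log2 scale. These were Oasl2 against inguinal fat (0.78), Irf7 (-0.97) and Rsad2 (1.52) against brown fat, and Cxcl10 (-1.16), Irf7 (-1.15), Rsad2 (1.30) and Isg15 (-0.88) against liver.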

How the results depend on the processing

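No value reversed. Of 983 values of single genes in other fits, over 59 results, 945 kept their side of the threshold and 38 lost it. Of these values 275 came from settings other than leaving 1 library out. The rest came from fits that left 1 library out and otherwise kept the main settings. The counts of the 9 genes called in small intestine at 4, 5 and 6 weeks (8, 8 and 9) were the same with any 1 library left out. Left out in turn, 1 library moved counts at 12 weeks to 2 to 5 higher in liver, 0 to 1 higher in pancreas, 0 to 1 lower in soleus and 1 to 5 lower in olfactory bulb, and the count at 20 weeks in epididymal fat to 3 to 5 higher. With only the 2 time points in the fit, counts at 12 weeks were 0 higher in pancreas and 0 lower in soleus (1 each before), 1 higher in gastrocnemius and 1 lower in hippocampus (0 before), and 2 lower in olfactory bulb (1 before). With the length index as a covariate, 0 were higher in liver (3 before) and 1 in gastrocnemius. Over all time points soleus had 2 lower with no filter (4 before) and gastrocnemius 4 higher with RLE size factors (2 before); the cause was not tested.

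Within an organ, replicate numbers did not pair the libraries of 0 days with those of 12 weeks. In no organ did deviations of the same number at these times have correlations over 0.1 for all 6 numbers. This check compared no organs with each other, so it cannot show whether a number marks 1 mouse across organs. As a block, replicate numbers gave 3 lower in olfactory bulb at 12 weeks. Over all time points they gave 5 lower in liver (3 before), 8 higher in pancreas (4 before) and 7 lower in olfactory bulb (4 before). With a block by time point on the libraries of 0 days and 12 weeks alone, 2 genes, Oasl2 and Usp18, differed between the white fat depots (1, Oasl2, before).

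Over all genes the calls at 12 weeks moved by more than 1.5 times with the index: from 3637 to 5715 in brown fat, 5287 to 3350 in liver, 731 to 1271 in pancreas, 508 to 2188 in soleus, 779 to 2655 in gastrocnemius, 3798 to 1147 in hippocampus and 3107 to 635 in olfactory bulb. With only the 2 time points in the fit they were 188 in soleus, 2835 in gastrocnemius and 613 in hypothalamus (1022 before).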

Other observations

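The mean of the 9 genes in different organs was compared over libraries with the same time point and replicate number, which the labels do not tie to 1 mouse. Over 78 pairs of organs (84 libraries each) Pearson's r of the deviations had a median of 0.18 and ran from -0.12 to 0.60; 73 were above 0 and 8 at least 0.4. The highest was brown fat with liver, 0.60, and brown fat with soleus and liver with hippocampus had 0.50 each. At 10 weeks replicates 4 and 6 were each above their group mean in 9 of 13 organs, and replicates 3 and 5 in 2. Replicate 3 at 4 weeks, which lacked most of the rise in small intestine (-2.31 from its group mean), was above its group mean in 9 of 13 organs. These values are descriptions and no test was made.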
